A study of Rattus norvegicus with 14 samples.

Results

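The genes described here are 8 genes of Schwann cells and myelin: Mbp, Pmp22, Prx, Mag, Mal, S100b, Sox10 and Scn7a. They were taken by gene name from the arrays, with every probe that carried the name, and they came to 12 probes of 30367 and 8 of the 17429 genes that passed the filter on dim probes. All 12 probes passed that filter. Expression was measured in plantaris, a fast calf muscle, of 14 Wistar rats, with 1 array per muscle. Control rats (n = 4) were fed 1000 IU of vitamin D per kg of diet. Depletion rats (n = 6) were fed a diet that lacked vitamin D, and repletion rats (n = 4) were fed such a diet and then one with vitamin D given back. How much vitamin D those diets held, and for how long they were fed, is not stated in the labels. All 14 animals were of 1 strain and 1 muscle, and the titles call the samples of a diet biological replicates. Depletion replicate 1 has a diet field that names the repletion diet, against its title; it was kept by its title. Levels are log2 of the array signal relative to the 75th percentile of that array, so a step of 1 is a doubling; a level is read across arrays for 1 probe and not between probes.

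Schwann cells are the glia of peripheral nerve, and those around large axons wrap them in a myelin sheath. Compact myelin is held together by a small set of abundant proteins, while adhesion and scaffold proteins join the sheath to the axon and to the matrix outside. A muscle sample holds Schwann cells only where it holds nerve: the branches that run through it and the cells that cap the nerve endings. Myelin genes are transcribed in the Schwann cell, and the nuclei of the neurons lie outside the muscle. In a piece of whole muscle more cells of a type and more RNA per cell cannot be told apart.

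The arrays came from 5 slides, and slide was a block in every comparison because deviations of muscles on 1 slide went together (median r of 0.46 over pairs on the same slide and -0.18 on different slides). Per array, 82.8% to 88.1% of spots were well above background. Precision is limited by the small number of arrays. All 9 muscle fibre genes listed as a check of the tissue, such as the fast myosin Myh1 and muscle creatine kinase Ckm, were well above background on all 14 arrays. Limma's test with Benjamini-Hochberg adjustment called 0 of 26385 probes in each of the 3 comparisons, where the lowest adjusted p was 0.832 for depletion against control, 0.933 for repletion against depletion and 1.00 for repletion against control. At an unadjusted p under 0.05 there were 1275 probes (4.83%), 917 (3.48%) and 524 (1.99%). No member was called in any comparison, so "higher" and "lower" below compare values and are not calls.

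The muscle of repletion replicate 2 stood apart from the other 13 in these genes. It had the highest level of all 14 arrays for 6 of the 8 genes, namely Mbp, Pmp22, Prx, Mal, S100b and Scn7a. For Mbp, Prx and Scn7a it lay over 1 log2 unit above the next array. Over all 17429 genes this array was the highest for 1745 and lay that far above the next for 0.166% (29 genes). Among the genes reported here, Mbp had the widest such gap on this array, at 2.95, followed by Apod. Differences that involve repletion are therefore given first from all arrays and then without this array. The same slide held control replicate 3 and depletion replicate 2, whose Mbp levels were -2.06 and -0.78.

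The probes of 4 members show why every probe of a gene was kept. The arrays hold 60-base probes; bases 31 to 60 are shown for 3 genes with a pair of probes, with the sense-strand hexamer AATAAA, the usual polyadenylation signal, in capitals. Both probes of each gene lie on the same strand of rn4.
Mag, chr1:85954601-85954660, minus strand: aaaagggacatgaAATAAAtgtcctaatga
Mag second probe, chr1:85954517-85954576, minus strand: ttctcgttgctgtaacaaaatactggacaa
S100b, chr20:12791789-12791848, minus strand: tcaggatgacaccattgtccccataggaca
S100b second probe, chr20:12791899-12791958, minus strand: tatttgacatcaacagttccaactggtgga
Scn7a, chr3:48633684-48633743, minus strand: ttcaaacaataggggtagtgaggaagcaga
Scn7a second probe, chr3:48634739-48634798, minus strand: aggaaaaggcatctattcagacccagatct
The second Mag probe starts 24 bases past the end of the first in the direction of transcription, and the first holds the hexamer. The second probes of S100b and Scn7a lie 50 and 995 bases before the first. The hexamer was found in 4 of the 12 member probes (Mbp, Pmp22, Mag and Sox10), and in 8.39% of all 30367 probes. A further pair, that of Mbp, is 30762 bases apart on chromosome 18 (79057264 to 79057323 and 79026442 to 79026501, plus strand).

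The probes of a gene did not always vary together over the 14 muscles. The pair for S100b did, with Pearson's r at 0.88 (permutation p adjusted over the 4 genes = 0.00032) and Spearman's rho at 0.80 (permutation p = 0.00093, adjusted 0.00372); r was 0.87 without repletion replicate 2. The pair for Scn7a had r at 0.73 (permutation p = 0.00697, adjusted 0.0139) and rho at 0.58 (adjusted permutation p = 0.068), but r was 0.38 without that array (adjusted permutation p = 0.265). The Mag and Mbp pairs had r at -0.12 and -0.07 (adjusted permutation p = 0.788 for both), with rho at -0.16 and -0.13. The second probes of Mag and S100b were each well above background on 10 of 14 arrays and that of Mbp on 12, while the brighter probe of each gene was well above background on all 14. A gene is represented below by its brightest probe.

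**Figure D1:**
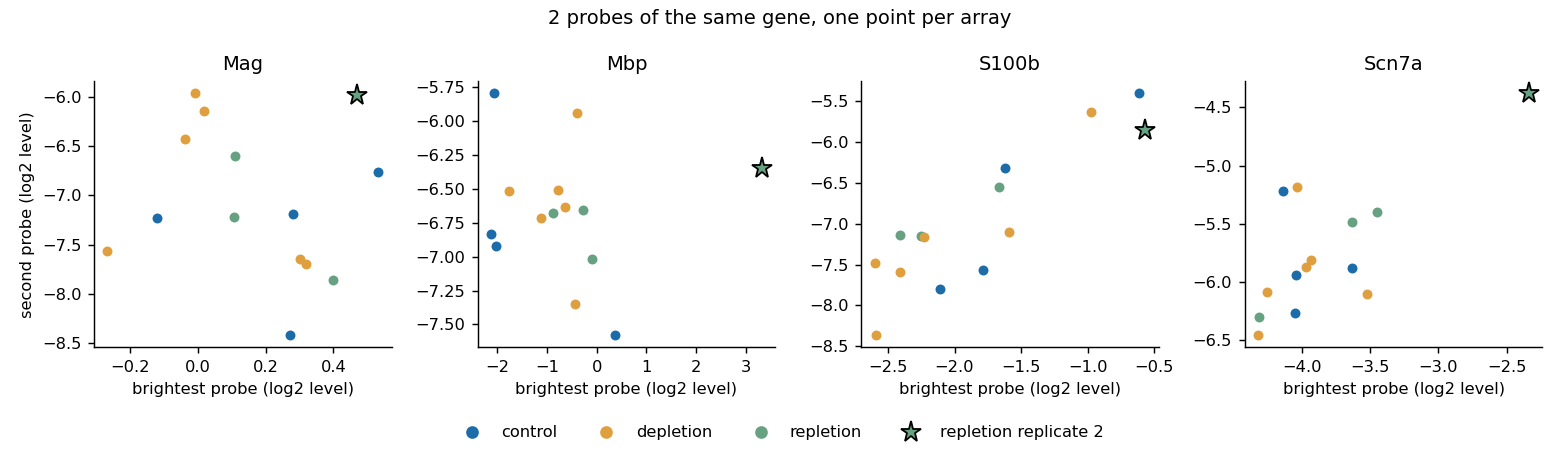
Level of the second probe (vertical, log2 relative to the array's 75th percentile) against the brightest probe (horizontal, same scale) for the 4 genes with a pair of probes, 1 point per muscle, coloured by diet. The points of S100b lie along a line (r = 0.88) and those of Mag and Mbp do not (r = -0.12 and -0.07); the star, repletion replicate 2, is far to the right for Mbp and Scn7a.

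Mbp and Pmp22, proteins of compact myelin, were measured as members. Mbp, myelin basic protein, seals the inner faces of the myelin membrane. Its levels were -2.12, -2.02, -2.06 and 0.37 in control replicates 1 to 4. In depletion they ran from -1.76 to -0.40 with a median of -0.71. In repletion replicates 1 to 4 they were -0.09, 3.32, -0.88 and -0.27. Control replicate 4 was higher than every depletion array, 3 controls were lower than every other muscle, and the diets overlapped. The level in repletion replicate 2 was 17.1-fold the median of the other 13 muscles. The second Mbp probe was at -6.35 there, within the -7.58 to -5.79 of the others.

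The Mbp difference between repletion and control was 2.13 ± 0.88 (SE, limma, unadjusted p = 0.0373, adjusted p = 1.00), and 0.93 ± 0.60 without repletion replicate 2 (unadjusted p = 0.159, adjusted p = 1.00). Repletion lay above depletion by 1.5 ± 0.74 (unadjusted p = 0.0713, adjusted p = 0.933), and by 0.55 ± 0.50 without that array. Within slides 1, 2, 3 and 5 this difference was 1.67, 4.10, -0.36 and 0.15, so its size came mostly from slide 2, which holds repletion replicate 2. Taking the mean of both Mbp probes gave 1.06 against control and 0.69 against depletion. Depletion against control gave 0.63 ± 0.81, which was 1.39 without control replicate 4 and -0.20 without control replicate 3.

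Pmp22 (chr10:49335537-49335596, plus strand), a membrane protein of compact myelin whose gene dose is linked to inherited neuropathy, was at 1.13, 0.75, 0.99 and 0.79 in control. It ran from 0.39 to 1.01 in depletion with a median of 0.87, and was at 0.90, 2.11, 0.97 and 0.63 in repletion. All 13 muscles other than repletion replicate 2 lay within a narrow band. In repletion replicate 2 the level was 2.31-fold their median. Repletion differed from depletion by 0.39 ± 0.20 (limma, unadjusted p = 0.079, adjusted p = 0.933), and by 0.15 ± 0.15 without that array. Against control it differed by 0.45 ± 0.24, and by 0.14 ± 0.18 without that array.

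Prx, periaxin, is a scaffold that links the outer Schwann cell membrane to the matrix (chr1:82597427-82597486, plus strand). Its levels were -4.78, -5.29, -4.87 and -4.36 in control and -4.91, -4.87, -5.09, -4.80, -4.72 and -4.90 in depletion. In repletion they were -4.38, -2.58, -4.84 and -4.25. The 6 depletion muscles were close together, 3 repletion muscles lay above all of them, and control lay on both sides of them. Repletion was above depletion by 0.88 ± 0.32 (limma, unadjusted p = 0.0203, adjusted p = 0.933) and above control by 0.99 ± 0.38 (unadjusted p = 0.0266, adjusted p = 1.00). Without repletion replicate 2 these were 0.44 ± 0.18 (unadjusted p = 0.0363) and 0.44 ± 0.22 (unadjusted p = 0.0747), at adjusted p of 0.929 and 1.00. Within slides 1, 2, 3 and 5, repletion minus depletion was 0.53, 2.29, 0.10 and 0.65, above 0 on all 4. The differences from depletion and control were smaller on 2 other scales of the data, at 0.53 and 0.38 with normexp background correction and at 0.53 and 0.60 on the authors' values.

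Mag and Mal are further membrane proteins of the sheath. Mag, myelin-associated glycoprotein, sits at the surface facing the axon. It was at -0.12, 0.27, 0.28 and 0.53 in control, ran from -0.27 to 0.32 in depletion with a median of 0.01, and was at 0.11, 0.47, 0.11 and 0.40 in repletion. The diets overlapped over nearly the whole range, and the highest level was that of control replicate 4, not of repletion replicate 2. Depletion differed from control by -0.25 ± 0.15, repletion from depletion by 0.24 ± 0.14, and repletion from control by -0.01 ± 0.16. The repletion differences without repletion replicate 2 were 0.22 ± 0.16 and -0.03 ± 0.20.

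Mal, a lipid-raft protein that takes part in sorting to the myelin membrane (chr3:115167515-115167574, minus strand), had a dim probe. It was at -5.70, -6.60, -4.99 and -5.11 in control, from -6.72 to -5.44 in depletion with a median of -5.75, and at -5.44, -4.26, -6.17 and -5.58 in repletion. Only repletion replicate 2 lay outside the span of the control muscles on the upper side, at 2.71-fold the median of the others. The difference between repletion and depletion was 0.53 ± 0.27 (limma, unadjusted p = 0.0812, adjusted p = 0.933), and 0.36 ± 0.29 without that array. Repletion differed from control by 0.46 ± 0.32, and by 0.24 ± 0.36 without it. The difference from depletion was 0.13 with normexp and 0.16 on the authors' values. Mal was low where the fat cell genes described below were high: r was -0.63 over 14 arrays (adjusted permutation p = 0.0839), rho was -0.64 (adjusted permutation p = 0.200), and r was -0.88 without repletion replicate 2 (adjusted permutation p = 0.0036). With normexp, r over 14 arrays was 0.35, so the sign of this relation depends on the background correction. Mal was not alone in it. Without repletion replicate 2, r with the fat cell genes was -0.76 for Prx (adjusted permutation p = 0.0517), -0.56 for Sox10 and -0.51 for Mbp. It was -0.48 for Scn7a, -0.22 for Pmp22, -0.18 for Mag and 0.56 for S100b.

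S100b, Sox10 and Scn7a mark Schwann cells with or without myelin. S100b is a calcium-binding protein abundant in Schwann cells and also made by fat cells. Its levels were -1.62, -0.62, -1.78 and -2.11 in control, from -2.60 to -0.97 in depletion with a median of -2.32, and -2.25, -0.57, -1.66 and -2.41 in repletion. High levels were seen in 1 muscle of each diet: control replicate 2, depletion replicate 3 (at -0.97) and repletion replicate 2. The first 2 of these had the highest summed levels of the 10 listed fat cell genes, with the adipokine Adipoq at 1.70 and 1.47 against 0.40 in repletion replicate 2. The fat cell list as a whole scored highest in control replicate 2, at 0.67 above the mean of the arrays other than repletion replicate 2, which itself scored 0.10. S100b and the fat cell score had r at 0.52 (adjusted permutation p = 0.151) and rho at 0.40 (adjusted permutation p = 0.373), r was 0.31 without the 2 arrays farthest in S100b, and the part of fat cells in the S100b level was not tested. Repletion differed from depletion by 0.28 ± 0.40, and by -0.09 ± 0.39 without repletion replicate 2. Against control the S100b difference was -0.32 ± 0.48, and -0.79 ± 0.47 without that array.

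Sox10, the transcription factor that Schwann cells need at every stage and that acts on myelin genes, did not stand out in repletion replicate 2 (chr7:117138840-117138899, minus strand). It was at -2.44, -2.47, -2.45 and -1.65 in control, from -3.29 to -1.45 in depletion with a median of -2.10, and at -2.16, -2.09, -2.71 and -1.71 in repletion. The level in repletion replicate 2 was 1.07-fold the median of the others and the sixth of 14. The 3 differences between diets were 0.07 ± 0.34 (depletion minus control), 0.09 ± 0.31 (repletion minus depletion) and 0.16 ± 0.37 (repletion minus control). The repletion differences without repletion replicate 2 were 0.06 ± 0.37 and 0.12 ± 0.44.

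Scn7a, an atypical sodium channel of non-myelinating Schwann cells and of sensory neurons, had 10 spots of its probe on each array, with a median SD of 0.073 between spots of 1 array. Its levels were -4.05, -4.04, -4.14 and -3.63 in control, from -4.32 to -3.52 in depletion with a median of -4.00, and -3.45, -2.34, -3.63 and -4.32 in repletion. Repletion replicate 2 was 3.25-fold the median of the others, and repletion replicate 4 was among the lowest. Repletion lay above depletion by 0.68 ± 0.24 (limma, unadjusted p = 0.0206, adjusted p = 0.933) and above control by 0.81 ± 0.29 (unadjusted p = 0.0205, adjusted p = 1.00). Without repletion replicate 2 these were 0.35 ± 0.15 (unadjusted p = 0.0485) and 0.40 ± 0.18 (unadjusted p = 0.0613), at adjusted p of 0.929 and 1.00. The second probe gave 0.51 ± 0.18 against depletion, and 0.41 ± 0.20 without repletion replicate 2 (limma, unadjusted p = 0.0186 and 0.0744, adjusted p = 0.933 and 0.929). It gave 0.48 ± 0.22 against control, and 0.34 ± 0.24 without that array. It too was highest in repletion replicate 2, at -4.38. With normexp the first probe differed from depletion by 0.46 and the second by 0.18, and the authors' values gave 0.40 and 0.19.

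**Figure D2:**
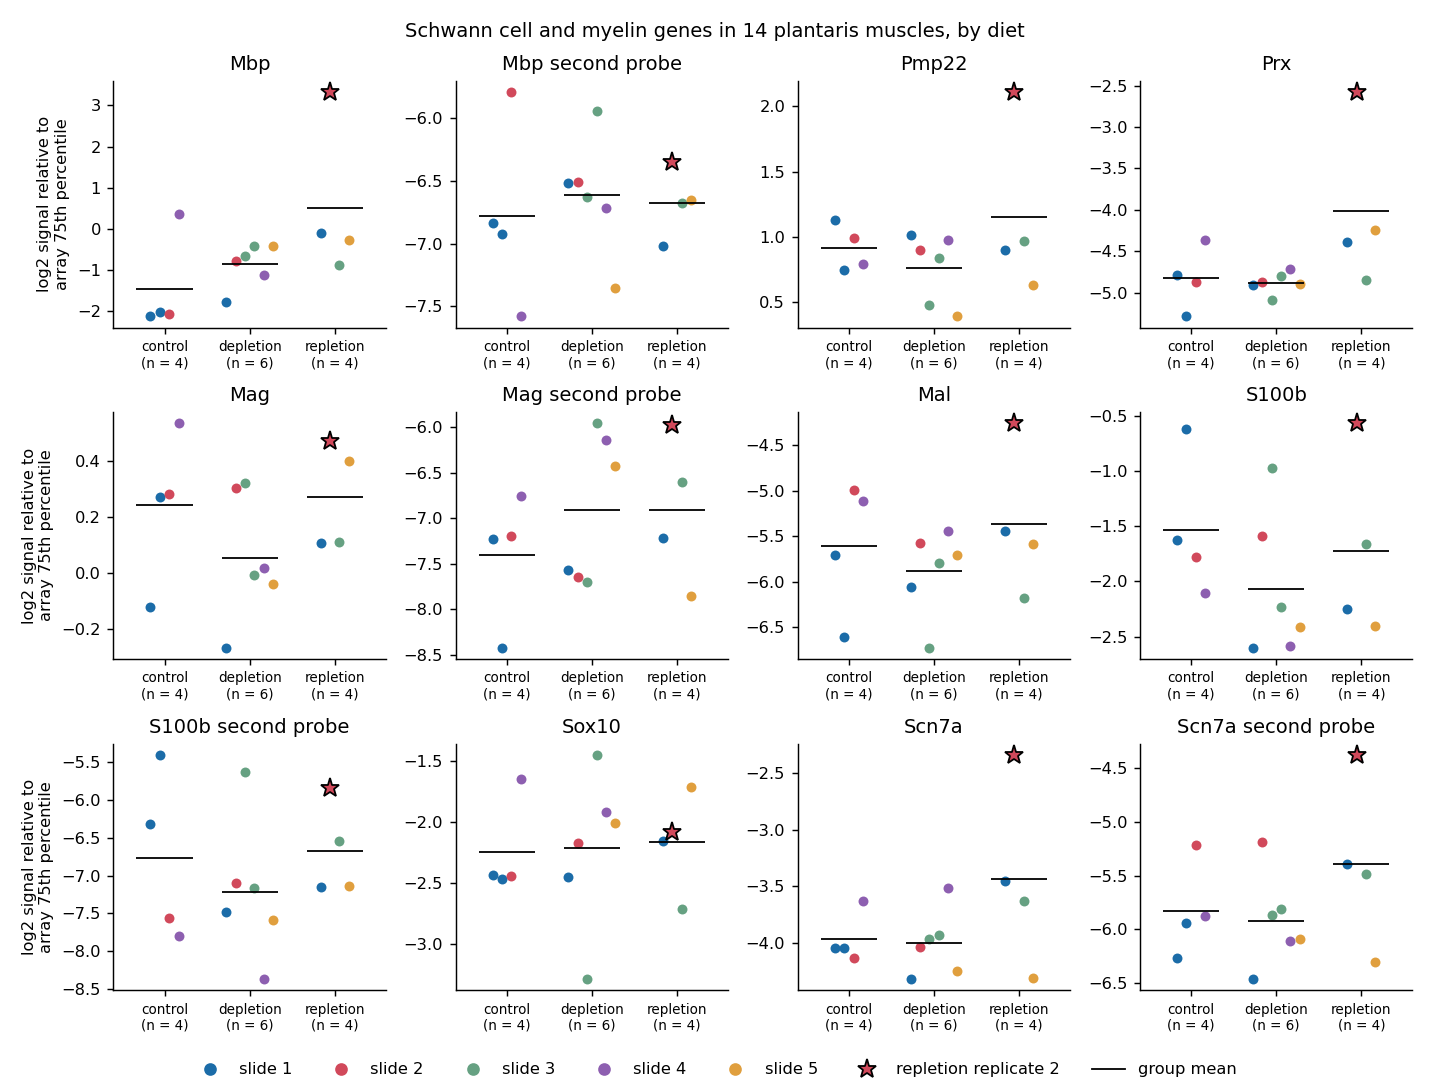
Level of each of the 12 probes (vertical, log2 signal relative to the array's 75th percentile; each panel has its own range) in control, depletion and repletion, 1 point per muscle coloured by slide, with group means as lines. The star, repletion replicate 2, is the highest point for Mbp, Pmp22, Prx, Mal, S100b and Scn7a but not for Mag, Sox10 or the second probes of Mbp, Mag and S100b.

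As a group, the 8 genes had a median difference of 0.06 between depletion and control, where all 17429 genes had -0.02. None of them had an unadjusted p under 0.05, against 4.83% of all probes. Repletion against depletion gave a median of 0.46, with 8 of 8 genes higher, against 0.03 and 58.6% of all genes. In that comparison 2 of the 8, Prx and Scn7a, were higher at an unadjusted p under 0.05, which 2.51% of all probes were. Repletion against control gave 0.45, with 6 of 8 higher, against 0.02 and 54.4% of all genes, and 3 of the 8, Mbp, Prx and Scn7a, were higher at that p against 1.3% of all probes. The comparisons share their arrays pairwise, so these medians are not separate evidence. Only slides 1 and 2 held both control and repletion muscles. Repletion replicates 3 and 4, on slides 3 and 5, were thus set against control only by way of the depletion muscles. For Mbp, repletion minus control was 1.97 within slide 1 and 5.38 within slide 2.

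Leaving out repletion replicate 2 lowered the medians of both repletion comparisons. Repletion against depletion then had 0.29 (7 of 8 higher, 59.2% of all genes), with Prx and Scn7a still at an unadjusted p under 0.05, against 2.42% of all probes. Repletion against control had 0.19 (6 of 8 higher, 55.3% of all genes), with 0 of 8 at that p, against 1.19% of all probes. Slide 1 was then the only slide with muscles of both these diets. For depletion against control the median was -0.01 (3 of 8 higher), although no array of those diets was left out, because all diets share 1 fit with slide as a block.

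**Figure D3:**
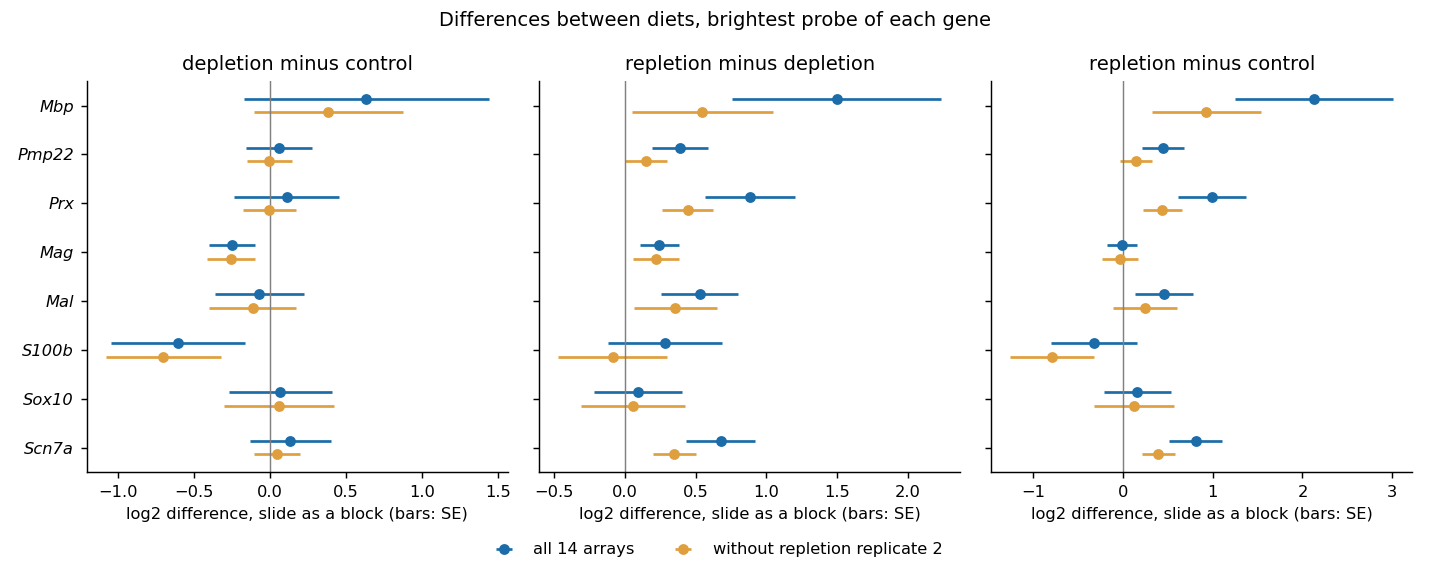
Difference in log2 level between diets (horizontal, with SE) for the brightest probe of each of the 8 genes, from all 14 arrays and without repletion replicate 2. Mbp moved most when that array was left out, from 2.13 to 0.93 for repletion minus control and from 1.5 to 0.55 for repletion minus depletion.

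Other myelin genes were measured from a list of 18, of which 16 passed the filter (Drp2 and Ugt8 did not). Pmp2, a lipid-binding protein of the inner face of myelin, was at -2.21 against -9.90 to -4.24. Pllp, plasmolipin, was at -3.77 against -7.50 to -5.63. Gldn and Lgi4, secreted proteins of Schwann cells, were at -2.26 against -4.76 to -3.34 and at -1.76 against -3.91 to -2.81. Those 4 genes lay over 1 log2 unit above the next array, and 10 of the 16 were highest in repletion replicate 2.

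Myelin genes that did not stand out in that muscle were measured too. Cnp, an enzyme of the sheath's cytoplasm, was at -2.87 against -3.92 to -2.24 in the others. Gjb1, the gap junction protein of the sheath's channels, was at -4.66 against -5.36 to -4.59. Cadm4, an adhesion protein facing the axon, was at -4.24, toward the low end of -4.69 to -2.14.

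Of these 16 genes, repletion was above control for 15, where 54.4% of all genes were, with a median of 0.25 against 0.02. At an unadjusted p under 0.05, 3 of the 16 were higher, against 1.3% of all probes (limma called 0 after adjustment). Without repletion replicate 2 it was above control for 11 of 16 (55.3% of all genes), with a median of 0.05 and 1 at that p (1.19% of all probes). Repletion was above depletion for 14 of 16 (58.6% of all genes), with a median of 0.20 and 2 higher at that p (2.51% of all probes). Without repletion replicate 2 this was 11 of 16 (59.2% of all genes), with a median of 0.13 and 1 at that p (2.42% of all probes). Depletion was above control for 9 of 16 (46.3% of all genes), with a median of 0.06 and 0 at that p (4.83% of all probes). The smallest p in the list belonged to Ncmap, a protein of the non-compact sheath, at 0.72 ± 0.26 for repletion minus depletion (unadjusted p = 0.0194, adjusted p = 0.933), and at 0.56 ± 0.28 without repletion replicate 2 (unadjusted p = 0.0775, adjusted p = 0.929). For repletion minus control, Pmp2 was at 2.37 ± 0.92 (unadjusted p = 0.0289, adjusted p = 1.00), the integrin Itgb4, a receptor for the matrix, at 0.70 ± 0.26 (unadjusted p = 0.0225, adjusted p = 1.00) and Adgrg6, a receptor that Schwann cells need to begin myelination, at 0.34 ± 0.15 (unadjusted p = 0.0415, adjusted p = 1.00). Without repletion replicate 2, Pmp2 was at 1.73 and Itgb4 at 0.43, both at an unadjusted p above 0.05, and Adgrg6 at 0.45 (unadjusted p = 0.021, adjusted p = 1.00); Adgrg6 was highest in repletion replicate 3. Pmp2 was at 0.48 with normexp and 0.83 on the authors' values. Its probe was well above background on 12 of 14 arrays, and was very dim in control replicates 1 and 2 (-9.90 and -9.33). Within slide 1, which holds those 2 controls, repletion minus control was 3.88 for Pmp2.

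Some genes of Schwann cells without myelin and of injured nerve were also high in repletion replicate 2. Of 15 measured, 6 were highest there, with Apod and Ngfr over 1 log2 unit above the next array. Apod, a lipid-binding protein made by endoneurial and Schwann cells after injury, was at 2.74 against -2.57 to -0.21. Ngfr, the low-affinity neurotrophin receptor, was at -3.21 against -5.60 to -4.92. In the same list Artn, a neurotrophic ligand, was at -1.20, which was 1.24 below the median of the others (-2.21 to 0.79). Bdnf, of this list too, lay 1.25 below its median in the others. The cell adhesion gene Ncam1 was at -2.72, within -3.62 to -1.51. Gfra1, a receptor for GDNF, had the smallest p in the list, at 0.76 ± 0.22 for repletion minus depletion (limma, unadjusted p = 0.00773, adjusted p = 0.933) and 0.62 without repletion replicate 2. Apod differed by 2.14 ± 0.78 between repletion and control (limma, unadjusted p = 0.0224, adjusted p = 1.00) and by 1.00 without that array. Gfap, an intermediate filament of non-myelinating Schwann cells, was at 0.34 ± 0.14 for repletion minus depletion (unadjusted p = 0.0397, adjusted p = 0.933) and at 0.37 ± 0.17 without repletion replicate 2 (unadjusted p = 0.0622, adjusted p = 0.929). Ncam1 was at 0.80 ± 0.35 for depletion minus control (unadjusted p = 0.0454, adjusted p = 0.832). Over the list, repletion was above control for 8 of 15 genes (54.4% of all genes). The median was 0.06, and 0.01 without repletion replicate 2. Repletion was above depletion for 10 of 15 (58.6% of all genes), with a median of 0.09, and 0.02 without that array. Depletion was above control for 6 of 15 (46.3% of all genes), with a median of -0.07.

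The next list held transcription factors and receptors that direct Schwann cells. Of 15 measured, 4 were highest in repletion replicate 2: Sox2, Erbb3, Nrg1 and Tfap2a. Sox2, a factor of immature and injured Schwann cells, was at -3.32 there against -7.12 to -5.19. Erbb3, the neuregulin receptor, was at -3.55 against -6.60 to -3.70. Egr2, the factor that drives myelination, was at -3.68 and was highest in depletion replicate 6 at -3.33. Pou3f1, a factor of promyelinating cells, was at -1.94, below all 13 others (-1.84 to -0.76). For this list the medians were -0.04, -0.01 and -0.02 (depletion minus control, repletion minus depletion, repletion minus control), and 0 of 15 had an unadjusted p under 0.05 in any of the comparisons. The medians without repletion replicate 2 were -0.06, 0.00066 and -0.01, again with 0 of 15 at that p. The smallest p values in the list were those of Erbb3 (0.50 ± 0.27, repletion minus depletion), Sox2 (1.18 ± 0.64, repletion minus control), Nab1 (-0.47 ± 0.28, repletion minus control) and Id4 (-0.52 ± 0.32, depletion minus control). The same differences without repletion replicate 2 were 0.61 ± 0.31 for Erbb3, 0.22 ± 0.32 for Sox2 and -0.29 ± 0.31 for Nab1.

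Genes of the node, the axon and the nerve sheath were measured as neighbours of the Schwann cell. Kcna1, a potassium channel placed beside the paranode, was at -2.42 in repletion replicate 2 against -6.26 to -3.95, and was the only 1 of 9 node genes over 1 log2 unit above the next array. Of 11 neuron and axon genes, 4 were highest there and none by that much. The neurofilament genes Nefl and Nefm were at -5.55 and -3.99, within the range of the other muscles, and Nefh was at -5.58 against -9.01 to -6.45 but was well above background on 8 of 14 arrays. Cldn1, a tight junction protein of the perineurium, was at 0.81 ± 0.21 for repletion minus control (limma, unadjusted p = 0.00325, adjusted p = 1.00) and 0.69 without repletion replicate 2. Osr2, a further gene of the nerve sheath list, was at 0.65 ± 0.24 for repletion minus depletion (unadjusted p = 0.0215, adjusted p = 0.933), and at 0.85 ± 0.23 without repletion replicate 2 (unadjusted p = 0.00569, adjusted p = 0.929). Over that list, repletion was above control for 6 of 8 genes (54.4% of all genes), median 0.14. Without repletion replicate 2 this was 5 of 8 (55.3% of all genes), median 0.04. Repletion was above depletion for 6 of 8 (58.6% of all genes), median 0.11 with and without that array. In repletion replicate 2, Sox9 and Ptch1 of the list lay 0.33 and 0.22 below their medians in the others. Snap25, a protein of transmitter release, was at 0.36 ± 0.13 for repletion minus depletion (unadjusted p = 0.0198, adjusted p = 0.933), and at 0.31 ± 0.15 without that array (unadjusted p = 0.0711, adjusted p = 0.929).

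The summed level of each list was set against its range in the other 13 muscles. The score is the mean deviation of a list's genes from their mean in those 13. In repletion replicate 2 it was 1.58 for the 8 genes (others -0.35 to 0.43) and 1.16 for the other myelin genes (-0.40 to 0.35). It was 0.81 for non-myelinating and repair Schwann cells (-0.40 to 0.39), 0.55 for the node (-0.37 to 0.41), 0.53 for neuron and axon (-0.41 to 0.41), 0.51 for Schwann cell regulators (-0.34 to 0.24) and 0.28 for the nerve sheath (-0.26 to 0.19). That muscle was thus the highest of 14 for all 7 of these lists. A score can rest on few genes of a list. Of the 9 node genes, 4 were highest there, and Kcna1 lay 2.97 above its median in the others. Cntn2, Sptbn4 and Cntnap1 of that list lay 0.88, 0.13 and 0.02 below theirs.

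Lists of other cells did not follow in this muscle. In repletion replicate 2 the score was -0.01 for muscle fibres, 0.02 for sterol synthesis, 0.01 for macrophages, -0.03 for T cells, -0.22 for endothelium and -0.71 for red cells, each inside the range of the others. The endothelial score ranked 13 of 14, at the low edge of the others (-0.22 to 0.24). Of its genes, Pecam1 was at 0.62, below all 13 others (0.75 to 1.40). Fibroblast genes scored 0.50, the third highest. Genes of oligodendrocytes, the myelin cells of brain and spinal cord, scored 0.41 and ranked sixth. Of those 5 genes Mog was highest in repletion replicate 4 at -2.77 and Mobp and Myrf in control replicate 3, while Opalin was at -4.92 in repletion replicate 2 against -5.82 to -2.32. Olig2 was highest in repletion replicate 2, at -6.40 against -8.54 to -6.52, and was well above background on 7 of 14 arrays. Their levels in muscle were well above background on all 14 arrays for 4 of the 5, all but Olig2. Between diets, some lists of other cells differed too, with 0 genes called. Repletion was above depletion for 5 of 5 fibroblast genes (58.6% of all genes), median 0.42, and 0.44 without repletion replicate 2. Repletion was above control for 5 of 6 macrophage genes (54.4% of all genes), median 0.44, and 0.64 without it. Repletion was above depletion for 1 of 10 fat cell genes (58.6% of all genes), median -0.24, and -0.42 without it. Muscle fibre medians were 0.06 against depletion and 0.05 against control. Lists outside nerve also held genes at an unadjusted p under 0.05 (limma). Higher in repletion than depletion were 1 of 5 fibroblast and 1 of 6 T cell genes (2.51% of all probes). Higher in repletion than control were 1 of 5 fibroblast and 1 of 6 macrophage genes (1.3%). For depletion against control, 1 of 6 endothelial, 1 of 6 macrophage, 1 of 2 red cell and 1 of 5 oligodendrocyte genes were at that p (4.83%).

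**Figure D4:**
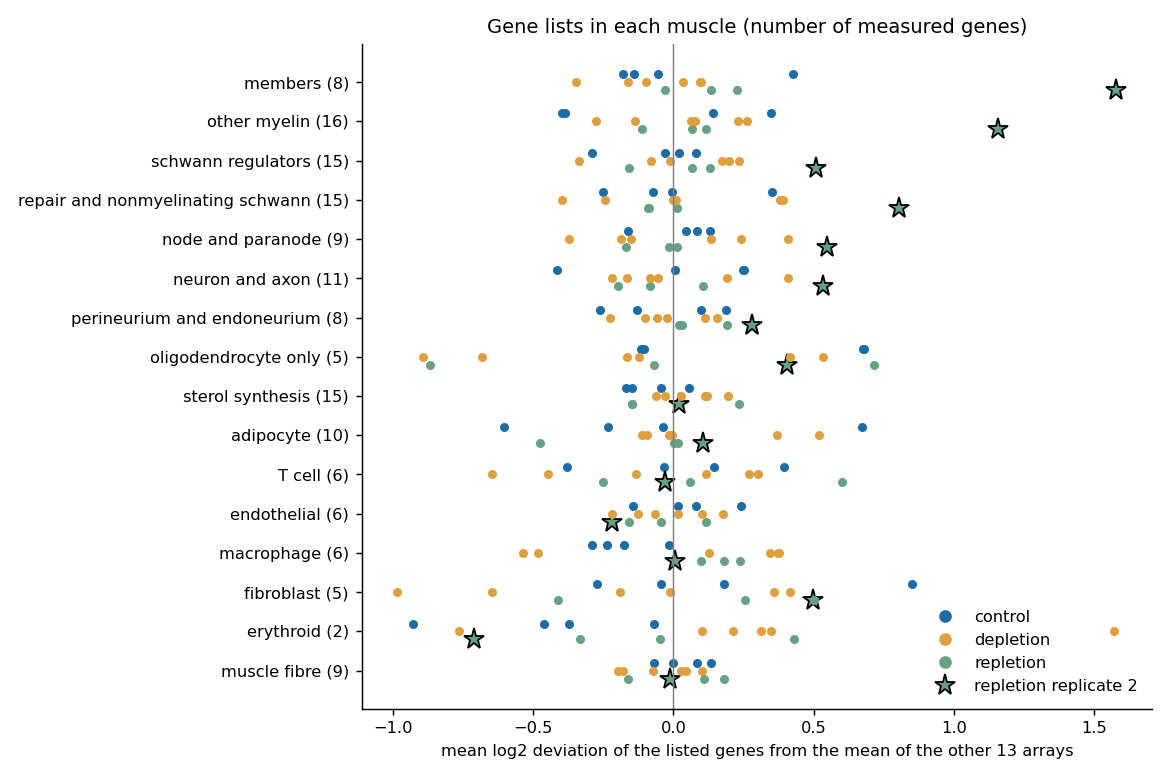
Score of each gene list in each muscle (horizontal, mean log2 deviation from the mean of the 13 arrays other than repletion replicate 2), coloured by diet, with the number of measured genes in brackets. The star is at 1.58 for the 8 genes (members) and 1.16 for the other myelin genes, outside the range of the other muscles, and at -0.01 for muscle fibre genes.

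The 8 genes did not vary as 1 block over the muscles. Of their 28 pairs, 2 had an adjusted permutation p of Pearson's r under 0.05 (36 correlations in the family), 0 by Spearman's rho and 0 without repletion replicate 2. The median r of the pairs was 0.43, and 0.17 without that array. Mbp and Prx had r at 0.90 (adjusted permutation p = 0.0139), rho at 0.61 (adjusted permutation p = 0.200), and r at 0.63 without repletion replicate 2. Prx and Mal had r at 0.79 (adjusted permutation p = 0.0133), rho at 0.68 (adjusted permutation p = 0.199), and r at 0.67 without it. After leaving out the 2 arrays farthest in the first gene of each pair, r was 0.69 and 0.73. Mbp and Pmp22 had r at 0.56, and -0.49 without repletion replicate 2, so the sign rested on that muscle.

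**Figure D5:**
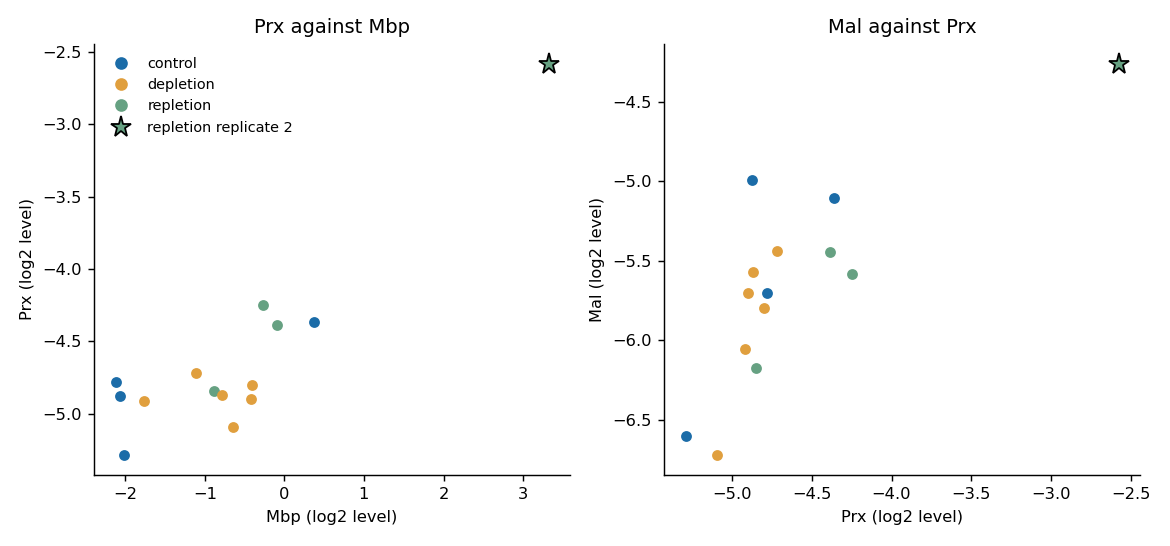
Levels of Prx against Mbp (left) and of Mal against Prx (right), in log2 relative to the array's 75th percentile, 1 point per muscle coloured by diet, with repletion replicate 2 as a star. Prx and Mbp have r at 0.90 with the star and 0.63 without it, and Mal and Prx have 0.79 and 0.67.

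The 10 genes outside the 8 whose pattern was most like theirs were ranked by their mean Pearson r with the 8 brightest probes over 14 arrays, among 17198 genes. They were Cmtm5 (mean r 0.65), Cnmd (0.64), Gpr37l1 (0.63), Igsf11 (0.63), Pllp (0.63), Shroom2 (0.63), Kcna1 (0.62), Grb2 (0.62), Aatk (0.61) and Guca1b (0.61). All 10 were highest in repletion replicate 2, as were 6 of the 8 genes they were ranked against, so the ranking favours such genes. Without that array their mean r fell to between 0.25 for Gpr37l1 and 0.35 for Cmtm5. Their ranks without it ran from 108 for Cmtm5 to 1919 for Gpr37l1.

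The promoters of Prx and Mag, 1 gene that was high in repletion replicate 2 and 1 that was not, are shown as RefSeq gives them on GRCr8, as the 250 bases before the gene's start. The searched motif was ACAAAG, the core that Sox proteins bind, on both strands; a match on the other strand reads CTTTGT and is in capitals. Prx had no match in this window, and Mag had 1, which begins at position -152 relative to the gene's start. Of all 33469 windows of this length 16.3% held the motif, and 2 of the 8 windows of the member genes did (Mag and 1 of the windows of Mbp). In all 7 of the 8 genes had an entry, and Sox10 had none.
Prx, chr1:91914171-91914420, plus strand: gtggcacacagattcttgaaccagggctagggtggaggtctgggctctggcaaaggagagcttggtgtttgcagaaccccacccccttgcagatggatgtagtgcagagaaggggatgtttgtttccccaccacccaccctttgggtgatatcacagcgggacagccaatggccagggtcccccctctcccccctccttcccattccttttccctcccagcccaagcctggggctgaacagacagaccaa
Mag, chr1:95291045-95291294, minus strand: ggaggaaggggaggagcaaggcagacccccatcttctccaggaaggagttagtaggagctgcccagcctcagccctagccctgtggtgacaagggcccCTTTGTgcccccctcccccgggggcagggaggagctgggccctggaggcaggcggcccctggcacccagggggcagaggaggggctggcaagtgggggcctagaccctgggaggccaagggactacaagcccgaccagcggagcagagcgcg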

How the data were processed

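RNA of 14 rat plantaris muscles was run on Agilent rat arrays with 1 dye. Per the file headers, the deposited scanner files give an intensity for each spot, made with Agilent Feature Extraction 11.5.1.1; the processed signal has the background subtracted and is not scaled between arrays. The authors also deposited log2 values normalized between arrays, with background correction and centring not stated, which served as an alternative. Of 42877 spots that were not controls, outlier spots (0.669% to 1.05% per array) were left out and none was saturated. The log2 processed signal minus log2 of the array's 75th percentile was averaged over a probe's spots. A probe needed signal well above background in 4 of 14 arrays and 2 values in each group, and 26385 passed. A gene is its brightest probe. A RefSeq gene table named 18438 probes by accession.

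Diets, by title, were fitted together in limma 3.58.1 (R 4.3.3), with slide as a block and p-values adjusted over all probes by Benjamini-Hochberg (threshold 0.05). Permutation tests were two-sided. The fit was tested on simulated data. Lists and rankings omit a few genes, which are not reported here. The 8 genes and the lists were chosen with earlier results of these data known. The naming rule took all 8 genes, up to 4 genes of each list by smallest unadjusted p and the 10 genes most like the 8; other names were chosen after their values were seen. Alternatives were other scalings, filters and blocks, only the diets compared, probe means, depletion replicate 1 as repletion, and each array left out. Figures were drawn with matplotlib 3.10.9.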

Additional observations from a re-analysis of the deposited data

Results flagged for a closer look

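An array in a group of 4 to 10 counted as apart when its gap to the nearest other array exceeded Dixon's critical share of the group's range. Of 36 groups tested over the 12 probes, 2 (5.56%) met this, and chance flags about 1 in 20. Both are control replicate 4. Its Mbp level was 0.37, with the next control at -2.02, and its Sox10 level was -1.65, with the next at -2.44. Repletion replicate 2, though the highest muscle for 6 genes, did not reach the critical share in any of them; for Mbp its gap was 0.812 of the range.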

How the results depend on the processing

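Limma called 0 probes and 0 of the 8 genes in each comparison under all 28 alternatives; at an unadjusted p under 0.05 there were 779 to 2223 probes for depletion against control, 323 to 1746 for repletion against depletion and 225 to 1016 for repletion against control. The median difference of the 8 genes lay between -0.11 and 0.16, between 0.29 and 0.57, and between 0.19 and 0.60 in the same order. The lowest median of both repletion comparisons was that without repletion replicate 2. Dim probes (Prx, Mal, Scn7a, Pmp2) gave smaller differences on the authors' values and with normexp; the cause was not tested.

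No single gene was called, so the changes of sign below are among values whose SE is large beside them, and their cause was not tested. Replicate number was not used as a pairing in the main fit. Same-numbered muscles had r between -0.49 and 0.72 (median 0.24), and different-numbered ones between -0.60 and 0.72 (median -0.02). With replicate number as a block in place of slide, the medians of the 8 genes were -0.10, 0.49 and 0.24. The replicate block turned depletion minus control for Pmp22 (-0.11), Prx (-0.092), Scn7a (-0.098) and Sox10 (-0.091), and repletion minus control for Mag (0.031). Without a slide block it was -0.15 for Pmp22, -0.055 for Prx and -0.039 for Scn7a, and 0.031 for Mag in repletion minus control; with slide as a random block these were -0.044 for Pmp22 and 0.0029 for Mag. With normexp, depletion minus control turned for Prx (-0.15), Scn7a (-0.049) and Sox10 (-0.0014), repletion minus control for Mal (-0.15), and the correlation of Mal with fat cell genes to 0.35. With only the diets compared, depletion minus control was -0.056 for Prx, -0.046 for Scn7a and -3.3e-05 for Sox10, and repletion minus control was 0.10 for Mag. With depletion replicate 1 counted as repletion, depletion minus control was -0.050 for Pmp22 and -0.071 for Prx. Array weights gave 0.034 for Mal in depletion minus control, and the mean of both Mag probes gave 0.068 for depletion and 0.28 for repletion minus control.

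With each array left out in turn, depletion minus control ran from -0.15 to 0.33 for Prx, -0.074 to 0.29 for Scn7a, -0.053 to 0.20 for Pmp22, -0.030 to 0.19 for Sox10, -0.26 to 0.12 for Mal and -0.20 to 1.39 for Mbp. Repletion minus depletion ran from -0.092 to 0.35 for Sox10 and -0.086 to 0.48 for S100b, and repletion minus control from -0.12 to 0.072 for Mag and -0.88 to 0.039 for S100b. Of 807 values of single genes under an alternative, 759 kept their direction. The correlations under other scalings and without single arrays were chosen after seeing the data: over these Mbp and Prx had r between 0.63 and 0.92, Prx and Mal between 0.67 and 0.87, and S100b and fat cell genes between 0.33 and 0.68.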
